A study of Mus musculus with 21 samples.

Results

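The regions described here are the 10986 autosomal regions, on chromosomes 1 to 19, of the table that set synovial fibroblasts of Tg197 mice against those of wild-type (WT) mice at 8 weeks of age. They were taken from the 11975 regions of that table by chromosome alone, and the 4 tables of the series held 49307 regions in all. Methylated DNA of cultured fibroblasts was pulled down with a protein that binds methylated CpG, then sequenced (MethylCap-seq), and each region carries 1 normalized read value per library. The study placed 8 weeks as established disease, between 3 weeks (early) and 11 weeks (late). Both groups had 3 libraries, came from CBA x C57BL/6J mice and were grown to passages 4 to 5. The Tg197 group carried the transgene and the WT group, whose genotype is given as wild type, served as its control. The labels give no treatment for either group. The labels do not say whether the 3 libraries of a group came from separate mice or cultures, or how many mice were pooled, so the spread between libraries may be technical. Libraries are numbered by the place of their value within the group, since the values carry no replicate number. The table heads its groups treatment and control, read here as Tg197 and WT, and every direction rests on that reading.

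Tg197 mice carry a human TNF transgene whose messenger RNA is stabilized, and they develop a chronic, erosive polyarthritis that depends on synovial fibroblasts. Synovial fibroblasts line the joint, secrete matrix and matrix-degrading enzymes, and respond to TNF through NF-kB. Methylation of cytosine at CpG dinucleotides is usually low at active CpG-rich promoters and high in gene bodies and repeats, and capture reads follow both the methylation and the CpG content of a fragment. Captured DNA carries no expression, so the cell type could not be checked by transcripts. Of 20 genes used as synovial fibroblast markers, 3 held a listed region.

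The promoters of 6 genes are printed, since the region covered all 250 bases before the start site and passed the test given below. They are the RefSeq sequences of GRCm38.p6, matched by gene symbol, 5′ to 3′ on the gene's strand, with each CpG in capitals; the deposited regions are in mm9. Capture fell in Tg197 at the first 4 and rose at the last 2.
Ccdc88b, chr19:6858212-6858461, minus strand: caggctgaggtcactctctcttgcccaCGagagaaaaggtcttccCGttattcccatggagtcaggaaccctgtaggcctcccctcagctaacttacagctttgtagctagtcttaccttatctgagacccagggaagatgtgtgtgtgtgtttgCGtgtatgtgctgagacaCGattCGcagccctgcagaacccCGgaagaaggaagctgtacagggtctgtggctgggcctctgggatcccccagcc
Adam1a, chr5:121521696-121521945, minus strand: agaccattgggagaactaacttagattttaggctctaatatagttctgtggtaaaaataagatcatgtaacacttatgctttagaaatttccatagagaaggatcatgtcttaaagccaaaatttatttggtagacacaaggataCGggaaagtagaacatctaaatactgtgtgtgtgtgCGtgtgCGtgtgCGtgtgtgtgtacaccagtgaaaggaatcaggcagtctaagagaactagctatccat
Pank3, chr11:35769245-35769494, plus strand: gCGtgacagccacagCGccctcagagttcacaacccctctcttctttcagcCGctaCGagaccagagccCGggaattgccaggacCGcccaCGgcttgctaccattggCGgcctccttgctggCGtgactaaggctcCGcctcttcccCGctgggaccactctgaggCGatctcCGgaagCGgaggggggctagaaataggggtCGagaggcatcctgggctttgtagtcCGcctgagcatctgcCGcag
Ltb, chr17:35194257-35194506, plus strand: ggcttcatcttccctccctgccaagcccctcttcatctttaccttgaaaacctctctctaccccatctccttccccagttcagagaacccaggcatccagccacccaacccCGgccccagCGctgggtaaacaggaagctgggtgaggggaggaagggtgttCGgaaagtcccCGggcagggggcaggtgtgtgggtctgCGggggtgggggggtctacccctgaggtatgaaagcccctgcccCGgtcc
Gm8883, chr1:71887862-71888111, plus strand: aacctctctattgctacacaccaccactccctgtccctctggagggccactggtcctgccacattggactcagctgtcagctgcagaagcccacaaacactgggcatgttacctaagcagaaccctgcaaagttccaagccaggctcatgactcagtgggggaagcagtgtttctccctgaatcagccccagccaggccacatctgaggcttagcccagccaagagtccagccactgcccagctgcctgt
Atp6v1e2, chr17:86947888-86948137, minus strand: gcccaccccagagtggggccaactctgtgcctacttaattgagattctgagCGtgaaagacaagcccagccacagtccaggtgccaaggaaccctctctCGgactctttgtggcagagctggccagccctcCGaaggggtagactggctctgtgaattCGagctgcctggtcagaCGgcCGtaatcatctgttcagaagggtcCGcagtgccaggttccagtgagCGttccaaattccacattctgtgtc
The Pank3 window held 17 CpG and a GC content of 63.6%, that of Adam1a held 4 CpG, 3 of them within a GT repeat, and that of Gm8883 held 0. Over all 32851 RefSeq promoters the same 250 bases held a median of 6 CpG. The 6 printed promoters do not stand for all listed promoter regions, of which 427 lay between 1 and 3 kb from a start. Of the 628 autosomal promoter regions 430 (68.5%) matched a RefSeq promoter, too few for a check of CpG content across the set, which is therefore void.

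At the Pank3 promoter, which serves a pantothenate kinase of coenzyme A synthesis (mm9, chromosome 11, 35582501 to 35583000), the normalized reads were 3.98, 3.46 and 4.41 in Tg197 libraries 1 to 3 and 12.7, 11.2 and 15.5 in WT libraries 1 to 3. The groups lay well apart and each was tight, and the log2 fold change was -1.51 (SE 0.40, limma adjusted p = 0.0428). Ltb encodes lymphotoxin beta, a membrane-bound member of the TNF family. Its promoter (chromosome 17, 35330551 to 35331550) held 25.2, 21.4 and 16.2 against 98.1, 79.4 and 26.5. WT library 3 was there only just above the highest Tg197 library, and the log2 fold was -1.48 (SE 0.50, limma adjusted p = 0.0447). Upstream of it a second Ltb region held 2.65, 2.77 and 14.7 against 44, 47.2 and 7.74, overlapped through WT library 3 and did not pass. Without Tg197 library 2 the first Ltb region no longer passed, and without WT library 3 those of Pank3 and Gm8883 did not. Gains were smaller: the promoter of Atp6v1e2, a subunit gene of the vacuolar proton pump, held 42.4, 38.8 and 64.7 against 18.6, 24.7 and 29.8, a log2 fold of 0.96 with no overlap of the groups.

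Across the autosomes, regions that lost capture in Tg197 outnumbered those that gained it. Of the 10986 regions 4340 passed as lower (39.5%) and 2006 as higher (18.3%), by limma on log2(value + 1) with an adjusted p under 0.05. In the whole table, X-linked regions included, 36.6% passed as lower and 17.4% as higher. All log2 folds here are on that scale, which shrinks changes of regions with few reads, and the median over all autosomal regions was -0.71. All 3 Tg197 libraries lay below all 3 WT libraries in 5021 regions (45.7%) and above them in 3045 (27.7%). The authors had already listed these regions as different in the same libraries, so each test here is a retest of selected regions and regions outside the table have no value. An exact permutation test of 3 against 3 cannot give a two-sided p under 0.1.

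The threshold sat close to the lowest adjusted p of this fit. The smallest adjusted p was 0.0428, shared by 4114 regions of the whole table, and the median was 0.0472. Leaving out Tg197 library 1 or 3, or WT library 1 or 2, left 0 regions passing by limma, with 6552, 5844, 4404 and 4294 autosomal regions at an unadjusted p under 0.05. limma voom on recovered reads passed 1765 higher and 4012 lower. Setting the library medians equal raised the median log2 fold by 0.32 and turned the split to 3148 higher and 2279 lower, or 58% higher against 31.6%. The excess of losses over gains was thus reversed among passing regions. Under that scaling 4048 regions still lay lower without overlap and 3401 higher, and the median log2 fold was -0.40.

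The libraries of a group were not alike. At the 4878 regions listed as gained, the log2 ratio to the mean of the WT libraries had a median of 1.05 in Tg197 library 1, 0.34 in library 2 and 0.78 in library 3, and -0.05, -0.05 and 0.11 in WT libraries 1 to 3. At the 6108 regions listed as lost, it was -1.36, -1.12 and -1.43 in Tg197 and 0.18, 0.13 and -0.31 in WT. So Tg197 library 2 was close to the WT libraries at gains and close to its own group at losses, while WT library 3 moved toward Tg197 at losses. Among the 4271 losses that passed and did not overlap, WT library 3 was the lowest WT library in 77.1%, and Tg197 library 2 was the highest Tg197 library in 55.8%. Among 1965 such gains Tg197 library 2 was the lowest Tg197 library in 60%.

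Other values also differed between the libraries. Within 1 kb of the start of X-linked genes, 259 listed regions had a median log2 ratio of 1.45 and 1.13 in Tg197 libraries 1 and 3 but -0.25 in library 2, against 0.12, 0.02 and -0.15 in WT. Reads recovered in the listed autosomal regions ranged from 564838 to 994946 per library, lowest in Tg197 library 3 and WT library 3. Regions with no read numbered 319, 58 and 543 in Tg197 libraries 1 to 3 and 18 to 23 in WT. Their part in the results was not tested. Without Tg197 library 2, 3573 regions passed as higher and 4348 as lower, without WT library 3, 1201 and 3785, and without both, 3462 and 5120.

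**Figure D1:**
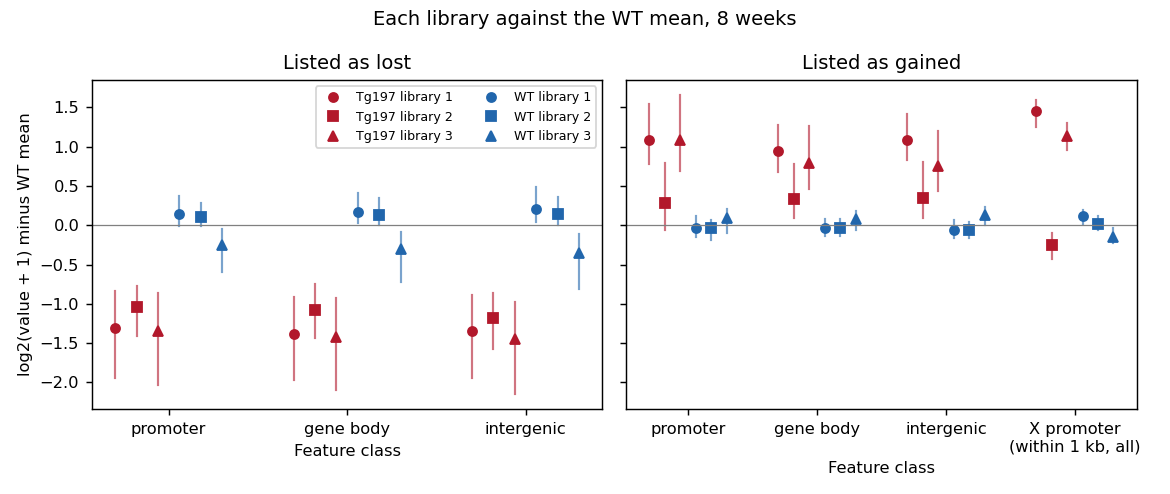
Median log2(value + 1) of each library minus the WT mean (vertical axis), by feature class at regions listed as lost (left) and gained (right), with all listed X-linked regions within 1 kb of a start at the far right; symbols mark libraries 1 to 3 and bars the interquartile range of the regions. Tg197 library 2 lies at 0.34 over all gained autosomal regions against 1.05 and 0.78 in libraries 1 and 3, and WT library 3 lies below the other WT libraries at losses.

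The largest promoter gain was at Rspo2, which encodes a secreted enhancer of Wnt signalling (chromosome 15, 43001651 to 43002550, from 187 bases before to 712 after the start). The region held 30.5, 15.9 and 97.1 normalized reads in Tg197 and 5.92, 1.5 and 6.63 in WT. Tg197 library 3 was far above library 2. Regions named for the size of their change, such as this one, had to be free of overlap between the groups. The log2 fold was 2.88 (SE 0.75). Gata4, a zinc-finger transcription factor of mesoderm and heart, held 18.6, 11.1 and 14.7 against 5.07, 1.5 and 2.21 in a region upstream of its start (log2 fold 2.08). At Zfp664, a zinc-finger gene, 38.4, 49.8 and 48.5 stood against 26.2, 11.2 and 4.42, so that here Tg197 library 2 was the highest of its group and the WT libraries were widely spread (log2 fold 1.93, SE 0.58). Med20 encodes a subunit of the Mediator complex of RNA polymerase II, and Mapk4 an atypical MAP kinase. Their promoter regions rose by log2 folds of 2.28 and 2.45, with WT library 3 at 0 in both, and Mapk4 no longer passed without that library. The uncharacterized 4833420G17Rik held 71.6, 24.2 and 25 against 8.46, 10.5 and 1.11 (log2 fold 2.57).

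Except at Irgm2, the 6 largest promoter losses had 0 reads in Tg197 libraries 1 and 3. Gpr65 encodes a proton-sensing receptor of immune cells, and its region (chromosome 12, 99507051 to 99507800) held 0, 4.15 and 0 in Tg197 against 16.9, 15 and 15.5 in WT. The WT libraries lay close together, while only library 2 of Tg197 had any read, and the log2 fold was -3.28 (SE 0.71). Tbx18, a T-box factor of limb and heart mesenchyme, had 0, 6.92 and 0 against 12.7, 17.2 and 15.5 (log2 fold -3.01). Oxa1l, an insertase of the inner mitochondrial membrane, had 0, 6.92 and 0 against 32.1, 21 and 8.84, with WT library 3 only slightly above Tg197 library 2 (log2 fold -3.27). Irgm2, an interferon-inducible GTPase, had 5.3, 6.92 and 0 against 29.6, 50.2 and 15.5 (log2 fold -3.00). Mcc, a gene mutated in colorectal cancers, and Fmo4, a flavin-containing monooxygenase, fell by log2 folds of -3.02 and -3.00. All 6 kept the direction without Tg197 library 2 or WT library 3, and Tbx18 alone no longer passed without WT library 3.

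**Figure D2:**
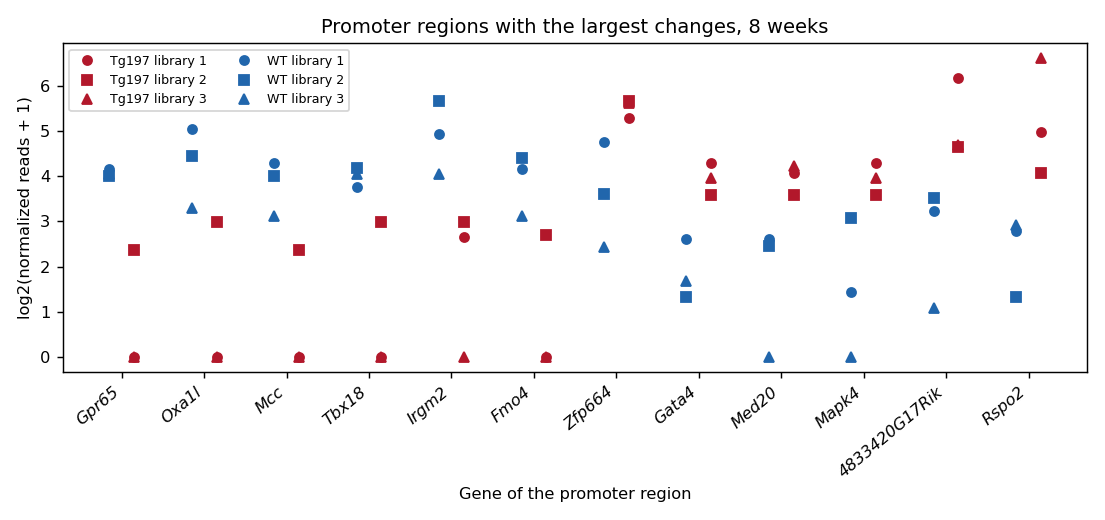
log2(normalized reads + 1) in each library at the 6 promoter regions with the largest losses (left) and the 6 with the largest gains (right). They were chosen by the limma fit among regions whose groups did not overlap. The 3 Tg197 libraries (red) therefore lie on one side of the 3 WT libraries (blue) by choice. At the losses Tg197 library 2 often stands alone above 0, as at Gpr65 (4.15 reads against 0 in libraries 1 and 3).

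Promoter regions were also picked where Tg197 library 2 departed most from libraries 1 and 3, as a description with no test. Fzd7, a Wnt receptor, held 68.9, 4.15 and 202 in Tg197 and 27.1, 42 and 14.4 in WT. Library 2 was the lowest of the 6 while library 3 was the highest. Cend1, a neuronal cell-cycle exit gene, held 43.7, 2.77 and 48.5 against 17.8, 11.2 and 8.84, and Gfi1, a zinc-finger repressor of blood cells, 86.2, 6.92 and 126 against 29.6, 21 and 13.3. The uncharacterized 6430527G18Rik held 94.1, 6.92 and 94.1 against 25.4, 26.2 and 24.3, so its WT libraries were nearly equal and library 2 lay below them. In the other direction, Gm4303 held 5.3, 51.2 and 7.35 against 44.8, 53.9 and 44.2, and Hal, the histidine ammonia-lyase gene, 2.65, 27 and 4.41 against 30.4, 34.5 and 33.2. Library 2 was thus at WT level in the former and just below it in the latter, while libraries 1 and 3 had lost most reads. Wee2, an oocyte kinase gene, held 2.65, 11.8 and 2.94 against 41.4, 40.5 and 16.6, and Oxa1l belongs to the same set.

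Of 6 listed regions classed as promoters of microRNA genes, chosen after their values were seen, 5 had been listed as gained, against 35.8% of all autosomal promoter regions. Their distances are to the start of the annotated microRNA gene. The start of the primary transcript was not located, so these regions may lie over the microRNA itself and not at its promoter. The mature sequences are printed because each gene makes 2 arms with different targets; they are from RefSeq (GRCm38.p6), 5′ to 3′, with the seed (bases 2 to 8) in capitals.
mmu-miR-132-5p: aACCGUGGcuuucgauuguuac
mmu-miR-132-3p: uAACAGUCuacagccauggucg
mmu-miR-182-3p: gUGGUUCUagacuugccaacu
mmu-miR-182-5p: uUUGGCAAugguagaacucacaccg
mmu-miR-196a-5p: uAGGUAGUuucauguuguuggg
mmu-miR-196a-2-3p: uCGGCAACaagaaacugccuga
mmu-miR-26a-5p: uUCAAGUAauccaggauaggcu
mmu-miR-26a-1-3p: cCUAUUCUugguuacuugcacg
mmu-miR-291b-5p: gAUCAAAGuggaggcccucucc
mmu-miR-291b-3p: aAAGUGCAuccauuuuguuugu
mmu-miR-490-5p: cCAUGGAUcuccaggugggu
mmu-miR-490-3p: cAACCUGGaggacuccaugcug
The 12 arms have 12 different seeds, so no seed family is represented by more than 1 arm. The Mir182 region was the only one of the 6 that passed, with 9.28, 6.92 and 5.88 in Tg197 against 21.1, 22.5 and 14.4 in WT (log2 fold -1.28, SE 0.39, limma adjusted p = 0.0428). Mir182 belongs to a microRNA cluster best known from sensory cells and lymphocytes. At Mir132, a microRNA induced by CREB and by inflammatory signals, 14.6, 24.2 and 17.6 stood against 9.3, 4.49 and 9.95 with no overlap, but the region missed the threshold (log2 fold 1.19, limma adjusted p = 0.0533). Mir490 held 105, 44.3 and 45.6 against 25.4, 33 and 35.4, also without overlap (limma adjusted p = 0.0661). At Mir196a-2, which lies in the Hoxc cluster, Mir26a-1 and Mir291b the groups overlapped through Tg197 library 2, at 18, 14.5 and 60.2 normalized reads. Without that library the log2 folds were 1.37, 1.61 and 0.91 and the 3 regions passed. In that fit 4 of the 6 microRNA regions passed as higher, against 27.7% of all promoter regions.

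Among gene body regions, Gm5631, a predicted gene on chromosome 19, held 13.2, 0 and 0 in Tg197 and 49.9, 45.7 and 26.5 in WT, so that here library 1 was the one Tg197 library with reads (log2 fold -4.05, SE 1.04). At Tep1, a component of telomerase and vault particles, the 3 Tg197 libraries held 1 read in all against 56 in WT. The ratio of normalized reads was 0.0212 (95% exact interval 0.000528 to 0.123, for counting error only, with reads taken as independent). Daam2, a formin that binds Dishevelled in Wnt signalling, held 0, 4.84 and 0 against 36.4, 28.5 and 8.84 (log2 fold -3.62). Among gains, Acp1, a low molecular weight tyrosine phosphatase, held 79.5, 85.1 and 82.4 against 1.69, 18 and 19.9. Its Tg197 libraries were nearly equal and WT library 1 stood far below the other WT libraries (log2 fold 3.03, SE 0.76). Ccdc6, a coiled-coil gene that is fused to RET in thyroid cancers, held 27.8, 9.69 and 27.9 against 5.07, 1.5 and 0 (log2 fold 3.07). At the opioid receptor gene Oprm1 30 reads in Tg197 stood against 3 in WT, a ratio of 11.9 (95% exact interval 3.7 to 60.9). Hpse2, a heparanase family gene, held 13.2, 11.1 and 8.83 against 5.07, 0 and 0 (log2 fold 2.71) and no longer passed without WT library 3.

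Intergenic regions carry no gene name in the table and are named by position. The 3 largest losses all lay on chromosome 15. The first, at 24690051 to 24691100, held 22.5, 0 and 0 in Tg197 against 117, 70.4 and 30.9 in WT (log2 fold -4.49, SE 1.24). Those at 14324901 and 19503351 fell by log2 folds of -4.33 and -4.31, and at the latter Tg197 library 1 held 27.8 against 2.08 and 0 in libraries 2 and 3. The largest gains lay on chromosomes 12, 16 and 7. That on chromosome 16 (51129001 to 51129500) held 53, 15.2 and 41.2 against 2.54, 0 and 9.95, with Tg197 library 2 lowest in its group but above all WT libraries (log2 fold 3.30). That on chromosome 12 (55379551 to 55380450) did not pass without WT library 3.

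Genes of 19 lists, which hold pathways and cell type markers, were read against the 39.5% lower and 18.3% higher of all autosomal regions and the median log2 fold of -0.71. No intergenic region can enter a list, since these carry no gene name. The nearer base is gene body regions, at 48.1% lower and 12.5% higher (median -1.04), and promoter regions, at 47.6% and 13.4% (median -0.94). A passing count near these shares says nothing particular about a list. No list's median changed sign when the library medians were set equal, but counts did move: regions passing as higher and lower then numbered 10 and 12 of 46 for focal adhesion, 7 and 8 of 24 for TGF-beta and BMP signalling, 3 and 3 of 12 for lymphocyte markers and 1 and 2 of 13 for the interferon response. Over all autosomal regions they numbered 3148 and 2279. Counts of higher regions also depended on Tg197 library 2. Without it they were 5 of 25 for TNF and NF-kB signalling, 9 of 40 for the extracellular matrix, 17 of 36 for limb patterning and 9 of 18 for skeletal muscle markers. In that fit 32.5% of all autosomal regions and 22.7% of gene body regions passed as higher. Without WT library 3, 15 of the 25 TNF and NF-kB regions passed as lower, against 34.5% of all autosomal and 41.6% of gene body regions. From each list the 2 largest candidates were named by rule, among regions that passed and whose groups did not overlap. Other genes named below were chosen after their values were seen.

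Genes of TNF and NF-kB signalling held 25 listed regions in 19 genes, of which 9 passed as lower (36%) and 2 as higher (8%), with a median log2 fold of -1.30. Tnip1, which restrains NF-kB by binding ubiquitin chains with A20, held 2.65, 4.84 and 2.94 in Tg197 and 18.6, 21 and 13.3 in WT (log2 fold -2.06, SE 0.43). Cflar, the inhibitor of caspase 8 that protects cells from TNF-induced death, held 2.65, 6.92 and 7.35 against 29.6, 26.2 and 16.6 (log2 fold -1.97). In both regions WT library 3 was the lowest WT library. A second Cflar region did not pass, with 247, 242 and 243 against 234, 211 and 238. Other passing losses lay at several steps of the pathway: both regions in Ikbkb, the kinase that marks the NF-kB inhibitor for degradation, fell (log2 folds -0.71 and -1.50), and so did one in its relative Ikbke (-1.79), one in Rela, the p65 subunit (-1.57), one in Bcl3, a nuclear IkB protein (-1.95), and one in Traf5, a receptor adaptor (-1.67). The 2 gains were in Map3k7, which encodes the kinase TAK1, and Tnfrsf11b, which encodes the RANKL decoy receptor osteoprotegerin. At the latter 130, 91.3 and 112 stood against 64.3, 73.4 and 79.6 (log2 fold 0.60). In Mapk14, the p38 kinase gene, WT libraries 1 and 2 held 104 and 81.7 while WT library 3 held 7.74, within the Tg197 range of 2.94 to 23.9, and the region did not pass (limma adjusted p = 0.0849).

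Cytokine, chemokine and receptor genes held 19 regions, 8 of them lower (42.1%) and 0 higher by limma. At an unadjusted limma p under 0.05 there was 1 higher, and voom passed 0. Without Tg197 library 2, 7 of the 19 passed as higher (36.8%). The 2 named regions are in receptor genes of the IL-6 family that lie close together on chromosome 15. Osmr, the oncostatin M receptor, held 0, 4.84 and 5.88 against 20.3, 16.5 and 11.1 (log2 fold -2.27), and a second Osmr region fell as well (-1.78). The first did not pass without WT library 3. Lifr, the receptor for leukaemia inhibitory factor, held 10.6, 6.92 and 1.47 against 36.4, 24.7 and 15.5 (log2 fold -2.04). Its ligand gene Lif lost capture near the start, with 23.9, 14.5 and 8.83 against 38, 36.7 and 55.3 (log2 fold -1.48), a region in which WT library 3 was the highest. The promoter of the chemokine receptor gene Cxcr4 fell by a log2 fold of -1.46, and 2 regions of the IL-4 receptor gene Il4ra by -1.95 and -1.35. All 4 regions of Jak3, a cytokine receptor kinase, followed the pattern of Tg197 library 2: the one nearest the start held 135, 29.8 and 263 against 66, 89.1 and 63, and none of the 4 passed.

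Interferon response genes held 13 regions, 7 lower (53.8%) and 1 higher. The named pair lies in Irf2, an antagonist of interferon-induced transcription, with 0, 6.92 and 4.41 against 17.8, 21.7 and 14.4 at the first (log2 fold -2.42) and 7.95, 7.61 and 1.47 against 16.1, 19.5 and 16.6 at the second (-1.67). Neither passed without WT library 3. Promoter regions fell at Ifnar2, a type I interferon receptor chain (log2 fold -1.46), and Oasl2, an oligoadenylate synthetase-like gene (-1.05). Ifngr2, a chain of the interferon gamma receptor, held the one gain (0.55) and, nearby, a loss (-1.30). Psmb8, Tap1 and Tap2 of antigen processing lie together on chromosome 17: Psmb8 passed (-1.34), while Tap1 and Tap2 did not, with WT library 3 at 7.74 and 14.4 normalized reads against 30.7 to 74.2 in WT libraries 1 and 2.

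Extracellular matrix genes held 40 regions in 26 genes, 22 lower (55%) and 5 higher (12.5%), with a median log2 fold of -1.15. Col14a1, a collagen that associates with fibrils, held 10.6, 0 and 0 against 16.9, 24 and 24.3 (log2 fold -3.31, SE 0.96), with Tg197 library 1 nearest the WT libraries, and did not pass without WT library 3. Col7a1, the collagen of anchoring fibrils, held 0, 4.84 and 0 against 16.9, 13.5 and 8.84 (log2 fold -2.92). Fbn1, the fibrillin of elastic microfibrils, had 2 lost regions (-1.69 and -2.14) and a gained one (0.60). The basement membrane proteoglycan gene Hspg2 held 6 regions, of which 2 passed as lower and none as higher. The other gains were at 2 regions of Col25a1, and at Col8a1 and Col27a1. At Col8a1, a collagen of vessel walls and the cornea, 53, 58.8 and 36.8 stood against 26.2, 16.5 and 19.9 (log2 fold 1.21), without overlap.

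Matrix proteases and their inhibitors held 20 regions, 11 lower (55%) and 3 higher (15%). Most losses were in genes of the ADAM and ADAMTS family: Adamts8 held 2.65, 8.3 and 0 against 44, 31.5 and 8.84 (log2 fold -2.91, SE 0.93), with WT library 3 barely above Tg197 library 2, and Adam9 held 0, 6.23 and 1.47 against 15.2, 12.7 and 14.4 (log2 fold -2.53). Adam9 did not pass without WT library 3. Plaur, the urokinase receptor, and Serpine2, a serpin that inhibits thrombin and urokinase, also fell (-1.88 and -2.31). The gains were in Mmp17, Mmp28 and Adamts19. Timp3, an inhibitor of metalloproteases and of TNF shedding, held 188, 38.1 and 129 against 51.6, 33.7 and 21 and did not pass (limma adjusted p = 0.061), with Tg197 library 2 below WT library 1.

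Focal adhesion and cytoskeleton genes held 46 regions, 22 lower (47.8%) and 7 higher (15.2%). Mylk, the kinase of smooth muscle myosin light chain, showed both: one region held 0, 9.69 and 0 against 22, 21 and 16.6 (log2 fold -3.23), and another 66.3, 63 and 53 against 26.2, 17.2 and 48.6 (1.08). WT library 3 stood apart from its group at the gained region, near the Tg197 libraries, and the lost region did not pass without it. Arhgap26, a GTPase-activating protein that binds focal adhesion kinase, held 2.65, 5.54 and 0 against 17.8, 27.7 and 11.1 (log2 fold -2.70). Parva, which links integrins to actin, held 382, 167 and 340 against 122, 93.6 and 147 at the promoter (log2 fold 1.23), a further gain (0.82) and a loss (-1.64) within the gene. Integrin genes fell at Itga3, Itga9, Itgav, Itgb2, Itgb3 and Itgb6, by log2 folds of -0.64 to -2.16, and rose at both regions of Itgb5 (0.74 and 0.92).

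Wnt signalling held 46 regions in 29 genes, 27 lower (58.7%) and 3 higher (6.52%), with a median log2 fold of -1.33. In role order, the ligand genes moved both ways: Wnt3 gained (1.54), Wnt3a had a gain and a loss (1.17 and -2.58), and Wnt9a and Wnt5b lost (-1.61 and -0.94). The co-receptor Lrp5 lost capture at 2 of 3 regions (-1.65 and -0.87) and Lrp6 at 1 of 2 (-1.73). Within the cell, both regions of the kinase Gsk3b fell (-2.07 and -1.52), as did the nuclear effectors Lef1 (-1.55) and Tcf7l1 (2 of 3 regions) and the co-repressor Tle3 (-0.98). Both regions of Znrf3, an E3 ligase that removes Wnt receptors from the surface and is itself cleared by R-spondins such as Rspo2, fell by -1.36. At the Znrf3 gene body region 13.2, 24.9 and 19.1 stood against 53.3, 51.7 and 43.1, with a wide gap between the groups. Of the 3 gains of this list, Rspo2 was the only one at a promoter.

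TGF-beta and BMP signalling held 24 regions, 15 lower (62.5%) and 5 higher (20.8%). Smad1, a BMP effector, held a lost region with 0, 4.15 and 0 against 12.7, 15.7 and 9.95 (log2 fold -2.98) and, nearby, a gained one with 78.2, 51.9 and 72.1 against 34.7, 31.5 and 42 (0.87). Both were free of overlap between the groups. Zeb1, a repressor of epithelial genes downstream of TGF-beta, had 2 lost regions, the larger at 0, 6.23 and 0 against 14.4, 11.2 and 15.5 (-2.91, not passing without WT library 3). Capture fell at the receptor genes Acvr1 (-1.87), Acvr1b (-1.94) and both regions of Acvr2b (-0.85 and -2.13), and rose at the BMP receptor gene Bmpr1a (0.68) and the co-receptor gene Tgfbr3 (1.21). The TGF-beta effector gene Smad3 held the largest gain of the list, 35.8, 9 and 66.2 against 5.07, 3.75 and 4.42 (2.44), with tight WT libraries and Tg197 libraries that spread widely.

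**Figure D3:**
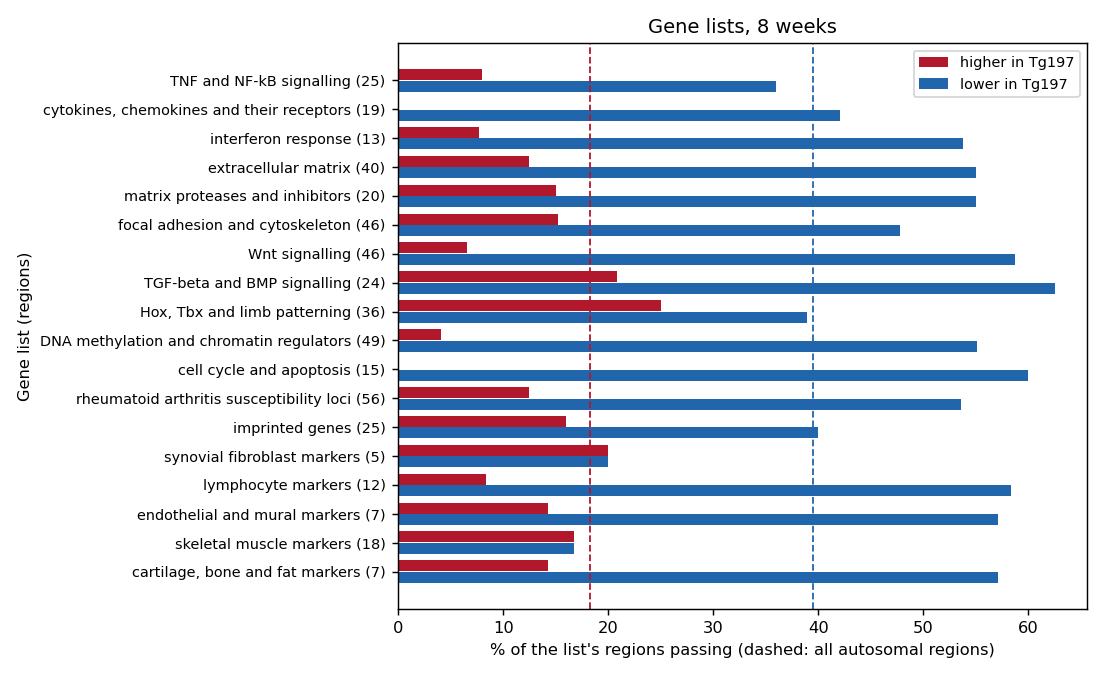
Share of each list's listed regions that passed limma as higher (red) or lower (blue) in Tg197, with the number of regions in brackets, for lists of at least 5 regions; the dashed lines mark all autosomal regions (18.3% higher, 39.5% lower). TGF-beta and BMP signalling reaches 62.5% lower, and the limb patterning list is the highest in gains, at 25%. The lists hold no intergenic regions, and gene body regions stood at 12.5% higher and 48.1% lower.

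Limb patterning genes held 36 regions, 9 higher (25%) and 14 lower (38.9%), with a median log2 fold of 0.46. The list divided by family, a division seen in the values and not tested. Its 13 regions in 10 Hox cluster genes included 11 listed as gained, 5 that passed as higher and 1 that passed as lower, with a median log2 fold of 1.198. Of all gene body regions 31.6% were listed as gained, and of all promoter regions 35.8%. In the other 16 genes 4 of 23 regions passed as higher and 13 as lower (median -0.96). Hox genes set position along the body and limb axes. Hoxb3 held 75.5, 19.4 and 103 in Tg197 and 9.3, 12 and 11.1 in WT (log2 fold 2.22, SE 0.60), Hoxc4 146, 67.1 and 79.4 against 44.8, 25.5 and 40.9 (1.33), and one Hoxd3 region 76.9, 48.4 and 32.4 against 22.8, 16.5 and 22.1 (1.25). Tg197 library 1 was the highest at Hoxc4 and Hoxd3 and library 3 at Hoxb3, and in each of these 3 regions all Tg197 libraries lay above all WT libraries. A second Hoxb3 region, at a promoter, held 84.8, 24.9 and 124 against 27.1, 22.5 and 16.6, overlapped through library 2 and did not pass (limma adjusted p = 0.0535). The median log2 ratio of the Hox regions was 1.87, 0.37 and 1.12 in Tg197 libraries 1 to 3, so library 2 was again the lowest, and without it 10 of the 13 passed as higher. Without WT library 3, 3 of the 13 did. The one Hox loss that passed was in Hoxa3 (-0.92), while a second Hoxa3 region did not pass (0.96, limma adjusted p = 0.0859). A region in Hoxa7 was listed as lost too (-1.05). Its groups did not overlap, but it did not pass.

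Among the other patterning genes, capture fell at Gli2, the transcription factor of Hedgehog signalling, with 0, 8.3 and 2.94 against 21.1, 15.7 and 15.5 (log2 fold -2.46), and at a second Gli2 region (-1.75). The first Gli2 region did not pass without WT library 3. Promoter regions of Tbx3 (-1.26) and En1 (-0.74) fell, and a region of Tbx15 rose (0.78). A region in the Hox cofactor gene Meis2 rose (1.36), with 45.1, 39.4 and 27.9 against 13.5, 15.7 and 12.2 and no overlap.

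Regulators of DNA methylation and chromatin held 49 regions in 26 genes, 27 lower (55.1%) and 2 higher (4.08%), with a median of -1.32. Arid1b, a subunit of the SWI/SNF remodelling complex, held 0, 6.92 and 0 against 27.9, 19.5 and 11.1 (log2 fold -3.27), and Jarid2, a cofactor of Polycomb complex PRC2, 0, 4.84 and 1.47 against 13.5, 13.5 and 9.95 (-2.44). The other Arid1b regions, with log2 folds of 0.44 and -0.26, did not pass. Of the genes that act on methylation itself, Tet3, which oxidizes methylcytosine, fell (19.9, 20.8 and 23.5 against 42.3, 40.5 and 37.6, log2 fold -0.88), as did promoter regions of Tdg, the glycosylase that excises oxidized methylcytosine (-1.56), and of Uhrf2 (-1.68). At Tet3 both groups were tight. One gain was in Chd7, a chromatin remodeller (1.11), a gene that also held a loss (-1.49). Without WT library 3 the Jarid2 region did not pass.

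Cell cycle and apoptosis genes held 15 regions, 9 lower (60%) and 0 higher by limma, with 0 higher also at an unadjusted p under 0.05 and by voom. E2f3, a transcription factor of S phase entry, held 2.65, 3.46 and 0 against 15.2, 18.7 and 8.84 (log2 fold -2.53), and Bax, which opens the outer mitochondrial membrane in apoptosis, 3.98, 5.54 and 0 against 18.6, 17.2 and 13.3 (-2.43, not passing without WT library 3). The only 2 listed gains of the list, at Bcl2l1 and Cdk6, did not pass (limma adjusted p = 0.0896 and 0.186).

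At rheumatoid arthritis susceptibility loci 30 of 56 regions passed as lower (53.6%) and 7 as higher (12.5%). Without Tg197 library 2, 15 passed as higher (26.8%), and with equal library medians 14 passed as higher and 15 as lower. Hc, the complement component C5 gene, held 0, 2.77 and 0 against 24.5, 19.5 and 13.3 (log2 fold -3.65, SE 0.65) and lost capture at a second region (-1.22). Pip4k2c, a phosphoinositide kinase gene, held 0, 3.46 and 1.47 against 16.9, 14.2 and 7.74 in its promoter (-2.59). Runx1, a transcription factor of blood and bone, had 5 listed regions, all lower in each Tg197 library than in each WT library, and 4 passed (-1.16 to -2.14). Arid5b had 9 regions, of which 6 were listed as gained and none of those passed. One of them held 376, 48.4 and 118 against 53.3, 41.2 and 24.3, so library 1 stood far above library 2. Gains passed at Cd28, Bach2, Aff3, Clnk, Ptprz1, Pvt1 and Ifngr2.

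Imprinted genes, which are expressed from one parental copy, held 25 regions, 10 lower (40%) and 4 higher (16%), with a median of 0.47. Ppp1r9a had 3 regions and all fell, the first with 3.98, 11.1 and 2.94 against 30.4, 43.5 and 14.4 (log2 fold -2.17). Sfmbt2 held 6.63, 4.15 and 0 against 16.1, 28.5 and 8.84 (-2.33, limma adjusted p = 0.0497), while its other region had a log2 fold of 0.44 and did not pass. Meg3, a maternally expressed noncoding RNA gene, carried a loss (-1.01) and, further along, a gain (0.82), each without overlap. Without WT library 3 the lost Sfmbt2 region did not pass, and 5 of the 25 regions passed as lower. Leaving out Tg197 library 2, 13 passed as higher.

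Of the cell type markers, regions of synovial fibroblast genes moved both ways. The promoter of Pdpn, podoplanin, a marker of the lining, held 11.9, 8.3 and 8.83 against 20.3, 25.5 and 19.9 (log2 fold -1.11), and Htra1, a secreted serine protease, 125, 79.6 and 107 against 60, 64.4 and 70.7 (0.65). Pdpn did not pass without Tg197 library 2, nor Htra1 without WT library 3. Macrophage and osteoclast markers held 1 region, in Csf1r, with 21.2, 69.9 and 54.4 against 96.4, 109 and 92.8 (-1.17). Lymphocyte markers held 12 regions, 7 lower and 1 higher, with losses at Bcl11b (-1.78) and Cd6 (-1.77). Another Bcl11b region had a log2 fold of 1.10 and did not pass. Endothelial and mural markers held 7, 4 lower and 1 higher, among them Notch3 (-2.87) and Prox1 (-2.37). Cartilage, bone and fat markers held 7, 4 lower and 1 higher, with losses at Alpl (-1.62) and Sox5 (-1.30). Skeletal muscle markers held 18, 3 lower and 3 higher: Ryr1 (-1.92) and Myh1 (-1.52) fell, and all 9 regions of Ttn were listed as gained, 7 of them without overlap and 1 passing, with a median log2 fold of 0.42. Of all gene body regions 31.6% were listed as gained and 20% lay higher without overlap. Without WT library 3 the Csf1r, Prox1 and Alpl regions did not pass, nor Myh1 without Tg197 library 2. Counts of listed regions at markers measure DNA and not cells, and whether the mix of cells differed between the groups was not tested.

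By position relative to genes, losses prevailed in and near genes. Of 628 promoter regions, which lie within 3 kb of a start, 299 passed as lower (47.6%) and 84 as higher (13.4%), with a median log2 fold of -0.94. In 4718 gene body regions 2271 passed as lower (48.1%) and 591 as higher (12.5%), median -1.04. In 5640 intergenic regions 1770 passed as lower (31.4%) and 1331 as higher (23.6%), and the median was 0.39. With equal library medians, promoter regions stood at 144 higher and 129 lower, gene bodies at 950 and 1182, and intergenic regions at 2054 and 968.

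Distance to the start changed the balance. The 58 regions within 250 bases of a start had 18 lower and 12 higher and a median of 0.49, those from there to 1 kb 59 lower and 27 higher of 143 (-0.59), and those between 1 and 3 kb 222 lower and 45 higher of 427 (-1.03). The regions within 250 bases had 20 lower and 31 higher (53.4%) without Tg197 library 2. In gene bodies losses were 824 of 1576 within 20 kb of the start, 1021 of 2057 from 20 to 100 kb and 426 of 1085 beyond 100 kb, while gains were 133, 249 and 209.

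Direction also moved with read level. Of 3378 regions with a mean under 20 normalized reads 2553 passed as lower and 342 as higher, and of 2800 with a mean of at least 100, 160 and 445. Within each class the share of losses fell with read level, from 76.6% to 13.3% in promoters, 79.4% to 9.31% in gene bodies and 71.3% to 3.24% in intergenic regions. At a mean of 100 or more, gains were 20.3% of intergenic regions, 9% of gene bodies and 7.08% of promoters, and without Tg197 library 2 they were 61.1%, 38.3% and 43.4%. How much of the difference between classes goes with read level was not tested.

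**Figure D4:**
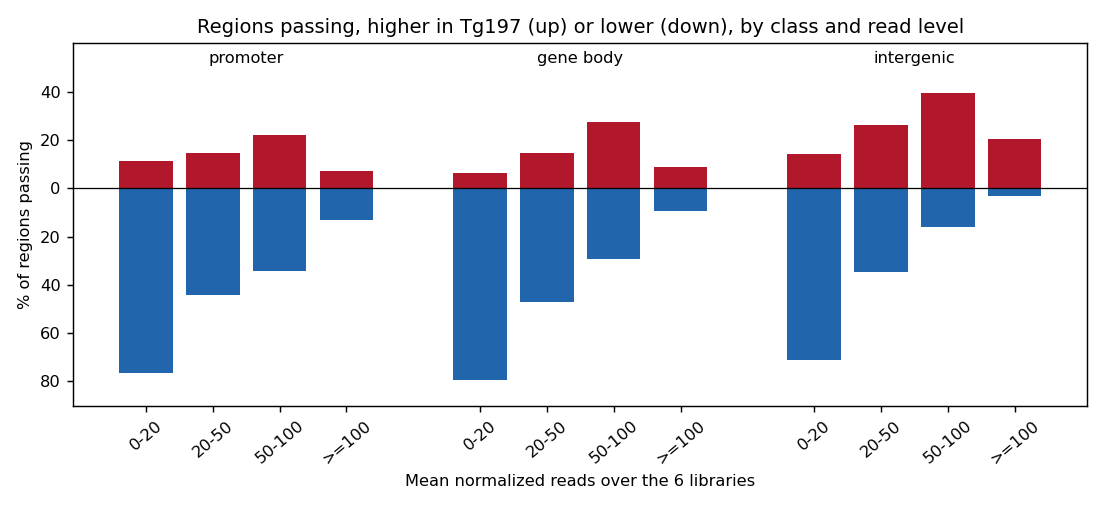
Percentage of regions passing limma (vertical axis; up, higher in Tg197; down, lower) by feature class and mean normalized reads over the 6 libraries (horizontal axis). In all 3 classes the losses shrink from the lowest to the highest read level, in promoters from 76.6% to 13.3%.

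Chromosomes differed in both directions. On chromosome 11, 567 of 924 regions passed as lower (61.4%), on chromosome 15, 310 of 542 (57.2%), and on chromosome 19, 180 of 332 (54.2%). Without WT library 3 these shares were 41.9%, 42.1% and 45.8%, and the highest were on chromosomes 17 (56.2%) and 14 (52.5%). Chromosome 12 was the reverse, with 355 of 754 regions higher (47.1%) and 165 lower, and chromosome 16 had 28.6% higher. On chromosome 12 the gains were packed between 18 and 26 Mb, where 194 of 254 regions passed as higher and 22 as lower. The median log2 ratio there was 1.27, 0.82 and 1.44 in Tg197 libraries 1 to 3 and -0.15, -0.08 and 0.29 in WT, so that Tg197 library 2 shared this gain. On chromosome 11 between 56 and 60 Mb 80 of 106 regions passed as lower, and on chromosome 15 between 78 and 80 Mb 33 of 50. Without chromosomes 11, 12, 15 and 17, 3004 of 8052 regions passed as lower (37.3%) and 1383 as higher (17.2%).

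WT library 3 did not depart from its group evenly along the genome. At 1785 of 6108 lost regions (29.2%) its log2 value was nearer the Tg197 mean than the mean of WT libraries 1 and 2. On chromosome 14 this held for 229 of 374 lost regions (61.2%) and on chromosome 17 for 280 of 509 (55%), against 94 of 704 (13.4%) on chromosome 11 and 42 of 314 (13.4%) on chromosome 2. Windows of 2 Mb with at least 10 lost regions numbered 188. The share was 80% or more in 5 of them, with 88 lost regions, and 20% or less in 79. Some extremes are given here, picked after their values were seen. On chromosome 14 the share was 80% of 35 lost regions between 46 and 48 Mb and 88.9% of 18 between 52 and 54 Mb. On chromosome 17 it was 92.9% of 14 between 50 and 52 Mb but 4% of 25 between 46 and 48 Mb. Whether such regions cluster was not tested. In the stretch of chromosome 17 from 34 to 36 Mb, which holds major histocompatibility genes and Ltb, the median log2 ratio was -0.82 in WT library 3, close to -1.02, -1.13 and -1.09 in Tg197 and far from 0.40 and 0.38 in WT libraries 1 and 2. Of the 71 regions there 36 passed as lower and 2 as higher, and without WT library 3, 58 and 3. Tg197 library 2 showed another pattern, nearer WT at 53.4% of 4878 gained regions, from 35.1% on chromosome 17 to 74.7% on chromosome 10.

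**Figure D5:**
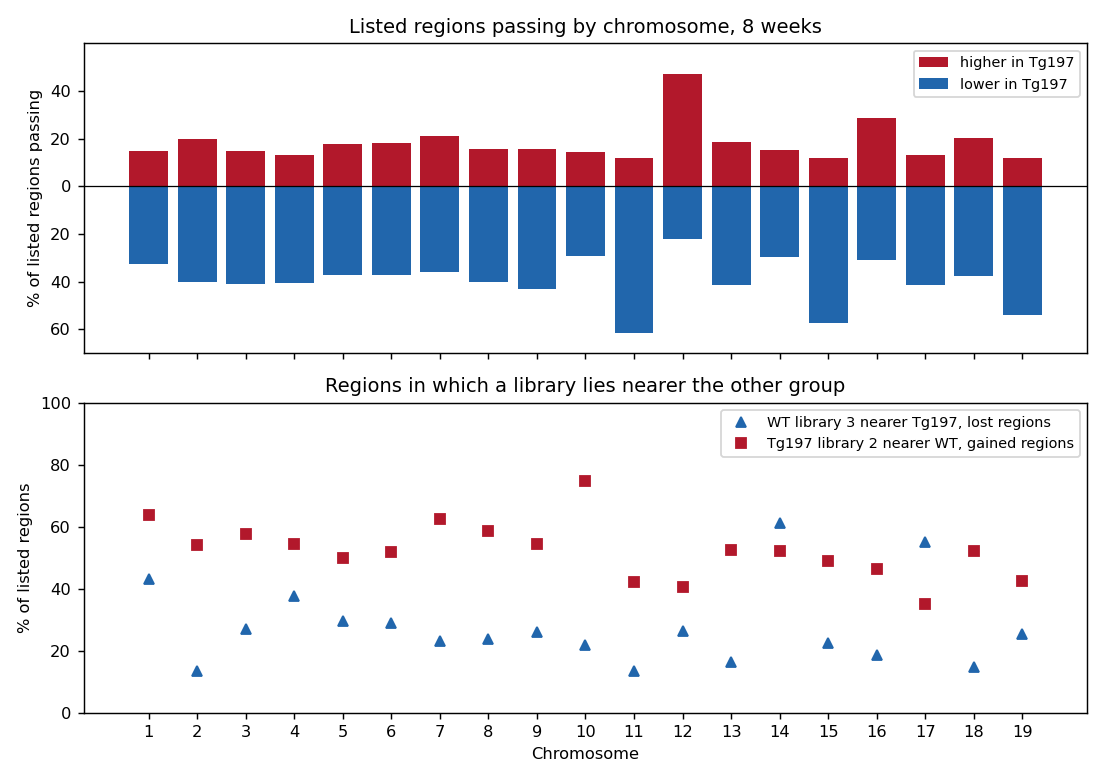
Top, percentage of listed regions on each chromosome that passed limma as higher (up) or lower (down) in Tg197. Bottom, percentage of lost regions in which WT library 3 lies nearer the Tg197 mean than the other WT libraries (triangles) and of gained regions in which Tg197 library 2 lies nearer the WT mean than the other Tg197 libraries (squares); chromosomes 14 and 17 stand out for WT library 3, at 61.2% and 55%.

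Some genes held many listed regions. Odz2, a teneurin cell adhesion gene on chromosome 11, had the most, 26 over 937.6 kb, of which 13 passed as lower and 9 as higher, with log2 folds from -2.77 to 1.62. Galnt10, a glycosyltransferase gene on the same chromosome, had 18 regions within 142.1 kb, 13 lower and 2 higher. In Dnahc8, an axonemal dynein gene on chromosome 17, all 13 regions had been listed as gained and 7 passed. The median log2 ratio in Dnahc8 was 0.71, 0.69 and 0.85 in Tg197 libraries 1 to 3, so library 2 was level with the others. Ptprm, a receptor tyrosine phosphatase gene also on chromosome 17, had 12 regions, 5 lower and 1 higher, with medians of 0.51 and 0.31 in WT libraries 1 and 2 and -1.06 in WT library 3. Slit3, a guidance ligand gene, had 8 lower and 2 higher of 11, and Skap1, an adaptor of T cell adhesion, 6 lower and 1 higher of 10. Of 148 genes with at least 4 listed regions, 44 had regions listed as lost alone and 16 as gained alone, and the rest had both.

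Few of the regions recurred at the other ages, where other libraries were used and values were normalized separately. By an overlap of at least 1 bp, 527 regions (4.8%) met a region of the 3-week table (4.17% of its autosomal regions) and 291 (2.65%) met one of the 11-week table (4.07%). Of 532 overlapping pairs with 3 weeks 50 were listed as gained at both ages and 136 as lost at both, while 231 were gained at 8 weeks and lost at 3, and 115 the reverse. Of 293 pairs with 11 weeks 54 were gained and 80 lost at both, and 99 and 60 changed direction. Among the named regions, that of 4833420G17Rik was also high in Tg197 at 3 weeks, with 107, 50 and 51.4 normalized reads against 16.9, 16.3 and 35.2, and every Tg197 library lay above every WT library at both ages. That of Col14a1 was low in Tg197 at 11 weeks too, with 5.58, 5.73 and 4.31 against 17.7, 19.6 and 17.5. Ppp1r9a went the other way at 3 weeks, with 42.1, 62.2 and 59.3 against 27.2, 30.8 and 23.9, and Bcl11b at 11 weeks, with 64.6, 63 and 75 against 32.6, 34.4 and 40.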

How the data were processed

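Per the submitters' processing notes BWA and mm9 were used; the program that compared the groups is not given in the sources used here. Per the file headers, each region listed by the authors carries 3 values per group, reads of each library divided by 1 size factor (normalized reads). The authors also deposited group means (signal), a log2 fold change and p-values, which were used to divide the listed regions into gained and lost. From 4 deposited tables, those of the 3 ages were used; the one on TNF-treated cells shares its WT libraries and was left out. No column of per-library values was left out (0). Whole reads were recovered for 100% of values within 0.1 read, from 564838 to 994946 per library in the listed autosomal regions. Of values of up to 20 reads, 57.6% to 63.8% were even. The exact intervals take each read as an independent count and cover counting error only. If reads were counted in pairs, the intervals are too narrow, which was not tested.

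The design was written for values that are not counts, and limma 3.58.1 in R 4.3.3 tested log2(value + 1) with a mean-variance trend and no covariate, over all 11975 regions of the table, with p-values adjusted by the Benjamini-Hochberg method and a threshold of 0.05. The test recovered known changes in simulated data with few changed regions and libraries of equal spread. That setting differs from these data, so it does not show how the test behaves on them. pandas 2.3.3, numpy 2.4.6 and matplotlib 3.10.9 were used for the rest. Regions were named by rule among those that passed, did not overlap and reached a mean of 10 in whichever group was higher: the 6 largest promoter, 4 gene body and 3 intergenic changes in each direction, and up to 2 per gene list. The rule also took, whether they passed or not, the 4 promoters in each direction in which Tg197 library 2 departed most, with a mean of 10 or more, and the 6 genes with the most regions. The regions and the 19 gene lists were chosen with earlier results of these data known. Alternatives changed the pseudocount (0.1 and 4), the filter, the scaling, the test, the regions fitted and the libraries. Results on some genes are not reported here.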

Additional observations from a re-analysis of the deposited data

How the results depend on the processing

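No region passed in the opposite direction under any of the 16 alternative settings run. Settings in which no autosomal region passed could not give such a call, nor could the log2 fold limit of 1, which only removed calls. The 2006 higher calls became 0 with a pseudocount of 0.1, where 2709 regions were higher at an unadjusted limma p under 0.05. Higher calls numbered 3148 with equal library medians, 4275 with a weight per library, 1300 without the trend and 936 with a log2 fold of at least 1. The 4340 lower calls became 0 with a pseudocount of 0.1 (4567 at an unadjusted limma p under 0.05) and 2279 with equal medians. Leaving out 1 library gave 0 to 3573 higher and 0 to 4348 lower, both highest without Tg197 library 2 and 0 when Tg197 library 1, Tg197 library 3, WT library 1 or WT library 2 was dropped. Without Tg197 library 2 and WT library 3 together, an alternative chosen after seeing the data, 3462 passed as higher, and 4655 lay higher in both remaining Tg197 libraries than in both remaining WT libraries. limma voom passed 1765 and 4012, of which 1696 and 3876 also passed in the reported fit. Of 1225 comparisons of a named region with an alternative, 789 kept direction and side of the threshold, 392 lost the call, 42 gained one and 2 changed sign: without Tg197 library 3 the log2 fold was -0.48 at Fzd7 and -0.0149 at Cend1, and over all libraries left out in turn it ranged up to 2.17 at Fzd7 and 1.84 at Cend1, both without Tg197 library 2. The cause was not tested. No paired analysis was possible because the values carry no replicate numbers, so the planned fit with a replicate block was not run. Depth limited the regions with few reads: under a mean of 20 normalized reads, 1 read is worth 0.692 to 1.47 in value, and a Tg197 value of 0 does not show absence of methylation.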
